A study of Glycyrrhiza uralensis with 12 samples.

Results

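The 150 genes of *Glycyrrhiza uralensis* described here are those whose levels followed the abundant Rubisco gene *Glyur000604s00024572* most closely over the 12 libraries of a salt and bacterium experiment on seedlings. They were chosen by Pearson's r between log2(CPM + 1) of a gene and log2(CPM + 1) of the Rubisco gene over all 12 libraries, where CPM is the reads of a gene per 1000000 mapped reads of the library. The genes chosen from were the 12109 annotated genes with a mean of at least 10 CPM that are not among the 22 carbohydrate genes the study tabulated. They come from a table of 29436 genes, with 28050 annotated ones and 1386 loci assembled from the reads. The choice used every library, so the level of the 150 genes in any library or treatment is a description, and no test of them stands apart from the choice.

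Seedlings received 75 mM NaCl and *Bacillus cereus* G2 (S + G2), 75 mM NaCl alone (S), water with G2 (CK + G2) or water alone (CK), with 3 libraries per treatment. The salt was given with the watering at sowing. G2 was given only weeks later, to seedlings that had grown with or without salt, so exposure to salt was longer than exposure to G2. *B. cereus* G2 is an endophytic bacterium, given as a washed suspension, and all seedlings were 45 days old and had grown in sterilized desert sand without nutrients. Seedlings were ground and full-length cDNA libraries made by a nanopore protocol. The sample records name a nanopore instrument for the run, whereas the methods name an Illumina sequencer. The RNA samples were grouped by weight, with no statement of which pots went into which sample, so p-values measure the spread between these libraries only. Some leaf material of the seedlings kept for biochemistry had gone to chlorophyll measurements, and no source used here says if the RNA came from the same seedlings or gives its share of leaf. In RNA of ground seedlings, fewer cells of a type and less RNA per cell cannot be told apart.

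Rubisco is the enzyme that fixes CO2 in the Calvin cycle of chloroplasts. Its small chain, which the study assigned to *Glyur000604s00024572*, is encoded in the nucleus of land plants by a small gene family and is among the most abundant messages of green tissue, where light and the state of the chloroplasts influence its level together with those of many other genes for chloroplast proteins. The NADP-dependent glyceraldehyde-3-phosphate dehydrogenase (GPD) carries out the reducing step of the same cycle, and ribose 5-phosphate isomerase (RPI) supplies ribulose 5-phosphate for regenerating the CO2 acceptor. The deposited annotation gives positions but no functions, so the 150 genes are given by identifier, structure and level.

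The Rubisco gene ranked 2 of all genes by mean level, with 18533 CPM or 1.85% of the mapped reads. It stood at 23125, 32629 and 18027 CPM in S + G2, at 21077, 20058.5 and 21858 CPM in S, at 26328, 10129 and 7523 CPM in CK + G2 and at 8774, 14475 and 18392 CPM in CK. The libraries of S were close together, whereas those of CK + G2 spanned nearly the whole range of the experiment. The lowest 3 libraries were CK + G2 replicates 3 and 2 and CK replicate 1, and the highest 2 were S + G2 replicate 2 and CK + G2 replicate 1. The highest library exceeded the lowest 4.34-fold.

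The 150 genes together took 6.41% of the reads on average and divided the libraries in nearly the same order. Their summed level was 64288, 102303 and 63957 CPM in S + G2, 76538, 70938 and 75130.1 CPM in S, 83172 CPM, 40605 CPM and 38702 CPM in CK + G2, and 38863, 48847 and 65278 CPM in CK. As treatment means ± SD (n = 3 each) these are 76849 ± 22044 CPM in S + G2, 74202 ± 2913 CPM in S, 54159.9 ± 25144 CPM in CK + G2 and 50996 ± 13338 CPM in CK. The 3 libraries of S all lay above the 3 of CK, while S + G2 and CK + G2 overlapped through CK + G2 replicate 1. With the Rubisco gene added, the genes took from 4.62% of the reads in CK + G2 replicate 3 to 13.5% in S + G2 replicate 2. The sum was 2.78 times the Rubisco level in S + G2 replicate 1 and 5.14 times in CK + G2 replicate 3, so the 150 genes varied less than the Rubisco gene did.

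**Figure D1:**
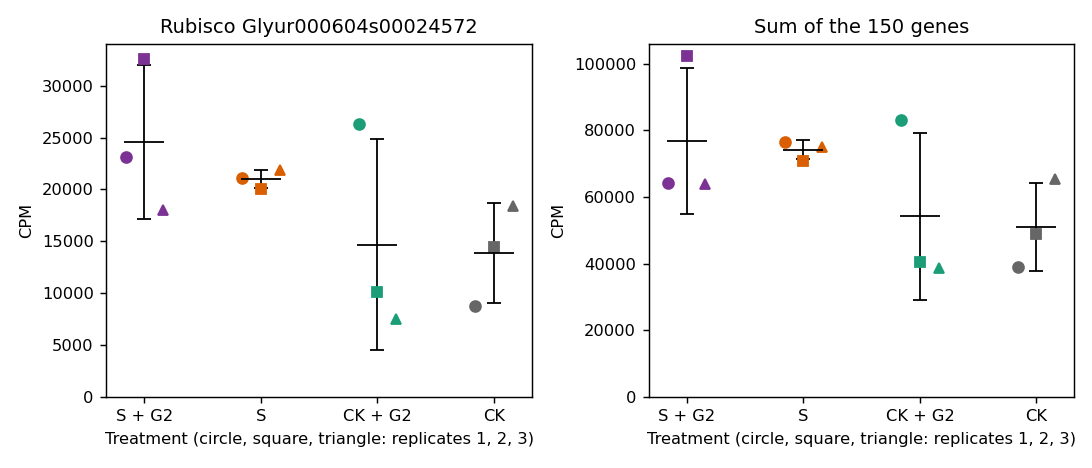
CPM (linear axes from 0) of the Rubisco gene on the left and of the 150 genes summed on the right, by treatment; circles, squares and triangles are replicates 1, 2 and 3, and the bars are mean ± SD (n = 3). S + G2 replicate 2 is highest in both panels (32629 and 102303 CPM), CK + G2 replicate 3 is lowest in both (7523 and 38702 CPM), and CK + G2 replicate 1 stands far above the other 2 libraries of its treatment.

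The library totals were 3303591 to 3929023 reads, and a single read was worth 0.255 to 0.303 CPM. The lowest value of any of the 150 genes in any library rested on 7 reads, so none was without reads. Depth did not follow the Rubisco gene (r = -0.0392 over the 12 libraries). The share of reads on assembled loci ran from 1.72% to 2.28% and moved opposite to it (r = -0.876), and the median deviation of the other genes chosen from ran from -0.09 on the log2 scale in S + G2 replicate 2 to 0.12 in CK + G2 replicate 3 (r = -0.956). The points of these correlations share their libraries and a fixed total per library, and the part of either measure in the pattern of the 150 genes was not tested.

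The r of the 150 genes with the Rubisco gene ran from 0.895 to 0.980, with a median of 0.923 and quartiles of 0.907 and 0.938. The 12109 genes chosen from had a median r of -0.282, and 30.7% of them had an r above 0. The limit at the 150th place falls in a continuous distribution, since 278 genes had an r of at least 0.85 and 440 genes one of at least 0.8. The last 2 genes taken, *Glyur000041s00007122* and *Glyur002873s00043368*, had r of 0.895488 and 0.895474, and the first 2 left out, *Glyur000790s00021802* and *Glyur000104s00006029*, had 0.895181 and 0.894959. *Glyur002873s00043368*, just inside, had 245, 280.2 and 245 CPM in S + G2, 193, 212 and 168 CPM in S, 224, 122 and 105 CPM in CK + G2, and 97.3, 110.2 and 176 CPM in CK. *Glyur000104s00006029*, just outside, had 548, 1271 and 639 CPM in S + G2, 769, 683 and 839 CPM in S, 821, 398 and 373 CPM in CK + G2, and 484, 534 and 708 CPM in CK. The gene outside kept the same 3 lowest and the same highest library as the Rubisco gene, so the edge divides genes of one pattern. Of the 319 assembled loci with a mean of at least 10 CPM, which the choice did not consider, 1 reached the limit (r = 0.929).

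**Figure D2:**
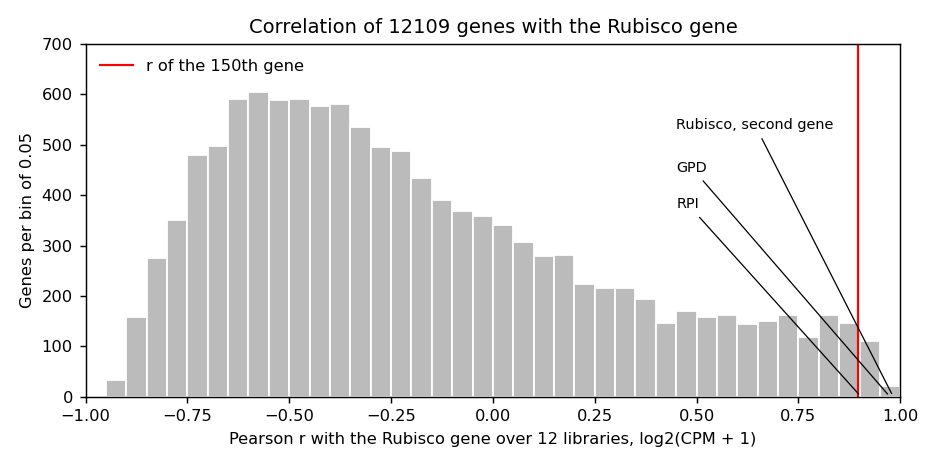
Number of genes (vertical axis, per bin of 0.05) by Pearson's r with the Rubisco gene over 12 libraries on log2(CPM + 1) (horizontal axis), for the 12109 genes chosen from; the red line is the r of the 150th gene (0.895) and thin lines point to 3 carbon fixation genes that were kept out of the choice. Most genes lie below 0, and the second Rubisco gene, GPD and RPI all lie to the right of the red line.

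Of the 21 other carbohydrate genes of the study, which were kept out of the choice, 3 had an r above that of the 150th gene, and these 3 were the other carbon fixation genes. The second gene assigned to the Rubisco small chain, *Glyur001973s00030832*, had an r of 0.983, higher than that of any gene chosen from. It stood at 514, 1095 and 363 CPM in S + G2, at 500.3, 596 and 633 CPM in S, at 787, 158 and 122 CPM in CK + G2, and at 163, 256 and 447 CPM in CK. GPD *Glyur002595s00035357* had an r of 0.975, and 1 of the 12109 genes had a higher one. Its level was 2724, 4203 and 2472 CPM in S + G2, 3064, 2939.9 and 2930.5 CPM in S, 3326, 1429 and 1277 CPM in CK + G2, and 1323, 1688 and 2232 CPM in CK. RPI *Glyur004632s00040687* had an r of 0.904, and 119 genes had a higher one. Its level was 123, 170.4 and 115 CPM in S + G2, 134, 135 and 111 CPM in S, 126, 59.7 and 71.8 CPM in CK + G2, and 62.04, 68.4 and 94.7 CPM in CK. The 3 lowest libraries of the second Rubisco gene and of GPD were those of the first, whereas in RPI CK replicate 2 lay below CK + G2 replicate 3. The other 18 genes, for starch and sucrose metabolism, glycolysis and the TCA cycle, had r from -0.797 (β-glucosidase *Glyur000214s00016036*) to 0.835 (alcohol dehydrogenase *Glyur000038s00004477*). The study had listed these 22 genes for their change in the same libraries, so their levels are no independent evidence for those of the 150.

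Among the 150 genes the closest to the Rubisco gene was *Glyur001071s00028848* (r = 0.980), a gene of 2 exons with 729 bases of annotated mRNA on the minus strand of Scaffold01071 at bases 83727 to 87685. It had 434, 611 and 444 CPM in S + G2, 471, 456 and 494 CPM in S, 503, 244 and 219 CPM in CK + G2, and 245, 317 and 385 CPM in CK. The highest library exceeded the lowest 2.79-fold, and the slope of its log2 level on that of the Rubisco gene was 0.72. It thus kept the order of the libraries within a smaller range. *Glyur004074s00039646* (r = 0.973, 2 exons, Scaffold04074, bases 4243 to 5476, minus strand) had 369, 508 and 372 CPM in S + G2, 420.3, 381 and 387 CPM in S, 421, 200.2 and 189.8 CPM in CK + G2, and 206, 256 and 329.6 CPM in CK.

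*Glyur000192s00009356* (r = 0.972) has a single exon of 432 bases and was also the third most abundant of the 150 genes. Its values were 3106, 4459 and 3041.5 CPM in S + G2, 3087, 2937 and 2892 CPM in S, 3477, 1252 and 1281 CPM in CK + G2, and 1439.7, 1870.3 and 2717 CPM in CK. In *Glyur004427s00043200* (r = 0.971, 5 exons) the 3 libraries of S differed little, at 726, 723 and 721 CPM. They stood beside 742, 961 and 675 CPM in S + G2, 795, 462 and 450.5 CPM in CK + G2, and 398, 509 and 675 CPM in CK. *Glyur000133s00010370* (r = 0.970, 7 exons) showed a like order at lower levels, with 19.6 CPM in CK + G2 replicate 3 and 58.2 CPM in CK + G2 replicate 1. *Glyur000986s00028874* (r = 0.968), a single exon of 273 bases, had its lowest value of 237 CPM in CK + G2 replicate 3 and its highest of 698 CPM in S + G2 replicate 2.

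The pattern of single libraries was shared by nearly the whole set. In 133 of the 150 genes the 3 lowest libraries were those of the Rubisco gene, and in the other 17 genes 2 of these 3 were among the lowest 3. Among the 12109 genes chosen from, the 150 included, 3.28% had these 3 libraries lowest. A choice by r over the same libraries favours this agreement, so the count describes the choice and is no separate result. The lowest library was CK + G2 replicate 3 for 62 genes, CK replicate 1 for 46 genes and CK + G2 replicate 2 for 42 genes. S + G2 replicate 2 was the highest library for 126 genes and CK + G2 replicate 1 for 15 genes. In 65 genes both of the highest libraries were those of the Rubisco gene. The median deviation from a gene's own mean was 0.67 on the log2 scale in S + G2 replicate 2 and 0.38 in CK + G2 replicate 1, against -0.66, -0.63 and -0.58 in CK + G2 replicate 3, CK replicate 1 and CK + G2 replicate 2. The difference between CK replicate 1 and CK replicate 3 (-0.63 and 0.10) was within one treatment and was larger than the median difference of the 150 genes between S and CK given below. The former is between single libraries and the latter between treatment means, so the measures are unlike.

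**Figure D3:**
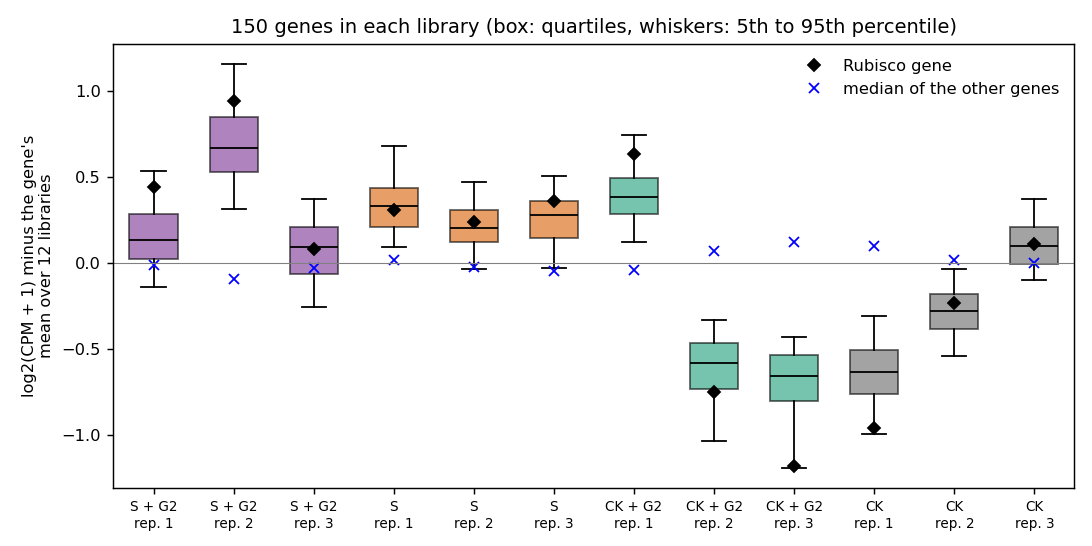
Deviation of log2(CPM + 1) of each of the 150 genes from its own mean over 12 libraries (vertical axis), by library; boxes show quartiles, whiskers the 5th to 95th percentile, diamonds the Rubisco gene and crosses the median of the other genes chosen from. The boxes of CK + G2 replicates 2 and 3 and of CK replicates 1 and 2 lie wholly below 0 (medians -0.58, -0.66, -0.63 and -0.28), and the box of S + G2 replicate 2 is the highest (median 0.67).

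The 150 genes also followed each other. The r between members of the set had a median of 0.893 over 11175 gene pairs, from 0.691 to 0.995, against a median of 0.0472 between the genes chosen from. On a scaled principal component analysis the first component held 88.8% of their variance and the second 2.59%. Both follow in part from the choice, since genes close to the same gene are close to each other. By ranks, Spearman's rho with the Rubisco gene had a median of 0.867 (0.622 to 0.972). Without CK + G2 replicate 3 and CK replicate 1, the libraries farthest from the median Rubisco level, the median r was 0.894 and the lowest 0.735.

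With each treatment mean taken off, r pooled over the 12 libraries had a median of 0.906 in the 150 genes, from 0.826 to 0.988, against -0.256 in the genes chosen from. This value leans on the treatments with the widest spread of Rubisco levels (SD of 10188 CPM in CK + G2, 7411 CPM in S + G2, 4837 CPM in CK and 902 CPM in S). The choice by r over the same libraries, spread within treatments included, favours a high value here. It is therefore no separate result. Within S the order differed, since the Rubisco gene was highest in replicate 3 and the sum of the 150 genes in replicate 1. The lowest values were those of *Glyur000330s00019510* (0.826) and *Glyur000779s00022840* (0.828). *Glyur000330s00019510* had 148, 271 and 134 CPM in S + G2, 159.8, 135 and 168 CPM in S, 127, 72.1 and 83.5 CPM in CK + G2, and 61.8, 98.6 and 153 CPM in CK. It departed from the Rubisco gene most plainly in CK + G2 replicate 1, the library of rank 2 for the Rubisco gene and of a middle value for this gene.

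The 150 genes were more abundant than the genes they were chosen from. Their mean level ran from 13.8 to 3155 CPM with a median of 150.4 CPM, against a median of 28.4 CPM in the genes chosen from, and the 10 most abundant held 36.9% of their sum. The choice took 6 of the 4044 genes under 20 CPM (0.148%), 96 of the 1658 genes of at least 100 CPM (5.79%) and 20 of the 88 genes of at least 1000 CPM (22.7%). Counting error lowers r in genes with few reads, and its share in this gradient was not tested. The median r of all genes chosen from was -0.254 at 10 to 20 CPM and -0.114 at 300 to 1000 CPM, and it was 0.611 at 1000 CPM or more. The median of the highest level class therefore stood on the side of the Rubisco gene. Its 88 genes include 20 of the 150, and a median without these 20 is not given here.

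The most abundant of the set was *Glyur000183s00013019*, at place 148 by r (0.896). Its levels were 2639.9, 5349.7 and 3042 CPM in S + G2, 3775, 3041 and 3633 CPM in S, 4789, 2059 and 2099 CPM in CK + G2, and 1631, 2301 and 3495 CPM in CK. It overlaps *Glyur000183s00013020* on the opposite strand, which had a mean of 5635 CPM and followed it with an r of 0.842. *Glyur001386s00028376* (mean 2704 CPM, r = 0.923) had 2457, 4742 and 2593 CPM in S + G2, 3237, 3206 and 3329.6 CPM in S, 3492, 1748 and 1569.8 CPM in CK + G2, and 1724, 1778 and 2575 CPM in CK. *Glyur000456s00017924* (mean 2492 CPM, r = 0.925) had a narrower range, from 1771 CPM in CK replicate 1 to 3817 CPM in S + G2 replicate 2.

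**Figure D4:**
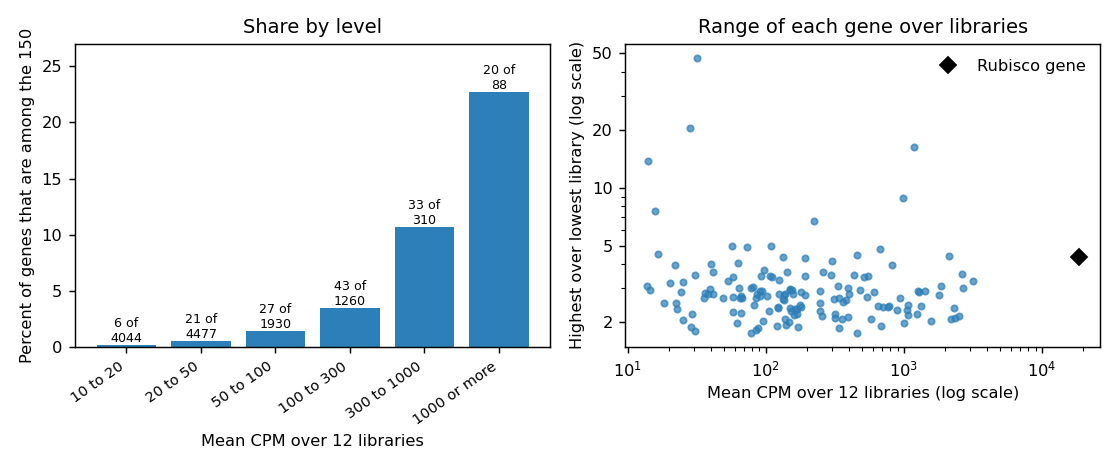
Left, percent of the genes chosen from that are among the 150 (vertical axis from 0) by class of mean CPM, with the numbers of genes above the bars; right, highest over lowest library against mean CPM for each of the 150 genes (points) and the Rubisco gene (diamond), both axes on a log scale. The share is 0.148% at 10 to 20 CPM and 22.7% at 1000 CPM or more, and most points lie below the 4.34-fold range of the Rubisco gene.

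Most of the 150 genes moved less than the Rubisco gene. The slope of their log2 level on that of the Rubisco gene had a median of 0.65 (0.33 to 2.24), and it was above 1 in 8 genes and under 0.5 in 23 genes. The highest library exceeded the lowest 2.75-fold in the median gene, by less than 2-fold in 13 genes, and by more than the 4.34-fold of the Rubisco gene in 15 genes. The widest range was that of *Glyur000019s00002098*, with 37.3, 93.1 and 12.2 CPM in S + G2, 50.2, 66.1 and 24.4 CPM in S, 46.8, 3.68 and 1.96 CPM in CK + G2, and 7.46, 9.14 and 27.8 CPM in CK. Its range was 47.5-fold, with 7 reads behind the lowest value and 353 behind the highest, and 24.4 CPM in S replicate 3 lay below 27.8 CPM in CK replicate 3. *Glyur000070s00008037*, a single exon of 339 bases, had a range of 20.5-fold, with 34.1, 96.8 and 14.8 CPM in S + G2, 37.1, 48.1 and 26.5 CPM in S, 27.6, 4.73 and 5.89 CPM in CK + G2, and 8.49, 13.8 and 20.6 CPM in CK. Its lowest library of S lay above its highest library of CK. At the other end, *Glyur000060s00004728* had 86, 109 and 82.3 CPM in S + G2, 90.2, 82.1 and 85.8 CPM in S, 101 CPM, 67.6 CPM and 59.7 CPM in CK + G2, and 61.5, 86.9 and 105 CPM in CK. Its highest CK library was above all of its S libraries, and its range was 1.82-fold.

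As annotated, the 150 genes were shorter than the others chosen from, with a smaller difference among abundant genes. The median annotated mRNA had 1246.5 bases, against 1641 bases in the other 11959 genes. The median coding length was 763.5 bases, against 1077 bases in the other genes. Among genes of at least 100 CPM it was 718.5 bases in the 96 of the set and 753 bases in the others, and the median annotated mRNA was 1207 bases and 1294 bases. The median number of exons was 4, against 6 in the other genes and 5 in the other abundant genes. Single-exon genes made up 30 of the 150 (20%), against 9.57% of the other genes. Among genes of at least 100 CPM they made up 23.96% of the 96 and 9.92% of the others, so this difference was not smaller there. The annotated mRNA was shorter than 500 bases, the length under which the authors had removed reads, in 17 of the 150 genes (11.3%). This held for 5.76% of the other genes and 8.51% of the other abundant genes. No UTR was annotated for 41 of the 150 genes (27.3%), against 17.1% and 15.9%, and reads longer than the annotated mRNA are therefore possible. For mRNA under 500 bases and for missing UTR the share of the 150 includes genes under 100 CPM, so the other abundant genes are not a like set. The percent of a gene's CPM that lay on its annotated transcripts, by the authors' transcript values, had a median of 2.39% in the 150 genes. It was 9.10% in the other genes. Among genes of at least 100 CPM it was 1.85% in the 96 and 5.90% in the others. Transcripts assembled from the reads could not be matched to genes, so where the rest of a gene's CPM lay is not known.

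The 150 genes lay on 133 scaffolds, and 15 scaffolds held more than 1 of them (32 genes, at most 3 on a scaffold). In gene order 3 pairs were neighbours, and in all 3 the genes overlap on opposite strands. These were *Glyur000105s00014192* and *Glyur000105s00014193* (r = 0.972 with each other), *Glyur000192s00009355* and *Glyur000192s00009356* (r = 0.933), and *Glyur000058s00006167* and *Glyur000058s00006168* (r = 0.877). An overlap with a gene on the opposite strand was annotated for 45 of the 150 genes (30.0%), against 20.5% of the other genes chosen from. Among genes of at least 100 CPM the share was 34.4% in the set and 18.6% in the others. In 38 of the 45 the neighbour was in the gene table, and 16 genes had a neighbour at over 10% of their own level. No source used here says if strand entered the authors' counting, and without strand the reads of 2 such genes cannot be told apart. *Glyur000192s00009355*, with 9 exons, had 613, 1298 and 797 CPM in S + G2, 1011, 769.9 and 747 CPM in S, 847, 323 and 399 CPM in CK + G2, and 271, 430.2 and 570.3 CPM in CK, below its single-exon neighbour in every library.

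The S vs. CK comparison asks how salt changed the seedlings without G2. All 150 genes had a positive difference, a direction that the choice of the genes favoured, with a median of 0.53 on the log2(CPM + 1) scale (0.06 to 1.71) beside a median of -0.05 over all genes tested. At an adjusted p under 0.05 (limma, trend, Benjamini-Hochberg over 21543 genes) 2 of the 150 were called, both higher in S. Over all genes tested 1.94% were called and 0.357% were called higher. *Glyur000065s00004317*, with 12 exons, had 89.6, 79.3 and 67.2 CPM in S, against 32.9, 35.7 and 52.7 CPM in CK, a log2 difference of 0.96 (SE 0.20, adjusted p = 0.0412 by limma). *Glyur000592s00020597*, a single exon of 414 bases singled out after its values were seen, had 188, 208 and 172 CPM in S, against 93.7, 102 and 126 CPM in CK, a log2 difference of 0.82 (SE 0.15, adjusted p = 0.0296 by limma). In both genes the libraries of S and CK did not overlap. None of the 150 was called without S replicate 1, 2 or 3 or without CK replicate 1 or 2. Without CK replicate 3, the CK library with the highest Rubisco level, 14 were called. Over these fits the difference was 0.83 to 1.17 for *Glyur000065s00004317* and 0.73 to 0.94 for *Glyur000592s00020597*. A fit with fewer libraries also calls less readily, and the part of this in the lost calls was not tested. Both calls were also lost with all 12 libraries in the fit (limma's adjusted p = 0.327 for *Glyur000065s00004317* and 0.156 for *Glyur000592s00020597*) and with a replicate block (0.0734 and 0.0525). edgeR's test called 1 and DESeq2 26 of the 150.

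An unadjusted p under 0.05 with a higher level in S was found for 96 of the 150 genes (5.42% of all genes tested), and the S libraries all lay above the CK libraries in 82 (7.58% of all genes tested). The median difference was 0.37, with 52 genes at such an unadjusted p, without CK replicate 1, and 0.73, with 138 genes, without CK replicate 3, and these 2 libraries lay at opposite ends of CK. In a fit of all 12 libraries 40 genes had such a p. The largest differences were those of *Glyur000019s00002098* (1.71, SE 0.46, adjusted p = 0.106 by limma), *Glyur000070s00008037* (1.36, SE 0.31, adjusted p = 0.0589 by limma) and *Glyur000264s00019956* (1.15, SE 0.40, adjusted p = 0.198 by limma). The smallest were those of *Glyur000060s00004728* (0.06, SE 0.19), *Glyur001575s00033024* (0.10, SE 0.23) and *Glyur002298s00031162* (0.19, SE 0.17). The carbon fixation genes kept out of the choice all lay above the median of the 150, with 0.66 (SE 0.41) for the Rubisco gene itself, 1.11 (SE 0.30) for the second Rubisco gene, 0.80 (SE 0.24) for GPD and 0.77 (SE 0.18) for RPI. None of these 4 genes passed an adjusted p of 0.05 by limma (0.492, 0.110, 0.131 and 0.0634), and in each the S libraries lay above the CK libraries. The study listed all 4 as upregulated in this comparison, by DESeq with its own limits of p and fold change, so the thresholds differ. The Rubisco gene guided the choice and the other 3 were listed for this change, so their place above the median is no separate result.

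The S + G2 vs. S comparison asks for the effect of G2 under salt and shares the S libraries with the one before. Of the 150 genes 92 had a positive and 58 a negative difference, with a median of 0.03 (-0.44 to 0.43) beside -0.02 over all genes tested. None was called by limma, edgeR or DESeq2, with 0.00465% of all genes tested called by limma, and 1 gene had an unadjusted p under 0.05 with a higher level in S + G2 (2.88% of all genes tested). The largest of the 150 differences was that of *Glyur002873s00043368*, at 245, 280.2 and 245 CPM in S + G2 against 193, 212 and 168 CPM in S (0.43, SE 0.15, adjusted p = 0.804 by limma). In 11 of the 150 genes all S + G2 libraries were above the S libraries (5.2% of all genes tested). For the Rubisco gene the S + G2 libraries (18027 to 32629 CPM) enclosed the S libraries (20058.5 to 21858 CPM). The choice therefore favours overlap and a wide spread here too, and these counts are no separate result. Single libraries set the sign of the median and the count. Without S + G2 replicate 2 the median was -0.14 and 28 genes had an unadjusted p under 0.05, without S + G2 replicates 1 and 3 in turn it was 0.12 and 0.13 (1 and 8 genes), and without S replicate 1 it was 0.08 and without S replicate 2 it was -0.0041 (1 gene each). S + G2 replicate 2 stood above the S libraries in the sum of the 150 genes, and S + G2 replicates 1 and 3 stood below them.

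The CK + G2 vs. CK comparison asks for the effect of G2 without salt and shares the CK libraries with S vs. CK. Here 61 of the 150 differences were positive and 89 negative, with a median of -0.03 (-0.64 to 0.26) beside 0.02 over all genes tested. None was called by limma, edgeR or DESeq2 (0.06% of all genes tested were called by limma), none had an unadjusted p under 0.05 (6.03% of all genes tested did). The 2 treatments overlapped in each of the 150 genes, and over all genes tested 5.18% lay wholly higher and 5.25% wholly lower in CK + G2. For the Rubisco gene the CK + G2 libraries (7523 to 26328 CPM) enclosed the CK libraries (8774 to 18392 CPM). A choice of genes that follow it favours overlap and a wide spread here, so these counts are no separate result. Direction and size depended on single libraries. Without CK + G2 replicate 1 the median was -0.36 and 20 genes had an unadjusted p under 0.05, and without CK replicate 1 it was -0.19. It was positive without CK + G2 replicate 2 (0.11), CK + G2 replicate 3 (0.14) or CK replicate 3 (0.15), with no gene at such a p. The median SE of the 150 differences was 0.31, against 0.21 in the S vs. CK comparison. *Glyur000019s00002098* shows the spread, with 46.8 CPM in CK + G2 replicate 1 and 3.68 and 1.96 CPM in the other 2 libraries of that treatment, against 7.46, 9.14 and 27.8 CPM in CK.

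The S + G2 vs. CK + G2 comparison asks how salt changed seedlings given G2 and shares no library with S vs. CK. All 150 differences were positive, a direction that the choice favoured here as well, with a median of 0.60 (0.24 to 2.05) beside -0.09 over all genes tested. None of the 150 was called by limma, edgeR or DESeq2 (0.0369% of all genes tested were called by limma), 32 had an unadjusted p under 0.05 with a higher level in S + G2 (3.26% of all genes tested), and 13 did not overlap (4.45% of all genes tested). Without CK + G2 replicate 1 the median was 0.94 and 144 genes had an unadjusted p under 0.05. Without CK + G2 replicate 2 or 3 it was 0.44 or 0.40 with 5 genes each, without S + G2 replicate 2 it was 0.39 with 10 genes, and without S + G2 replicate 1 it was 0.68 with 18 genes. In a fit of all 12 libraries 66 genes had such a p. In the sum of the 150 genes CK + G2 replicate 1, at 83172 CPM, lay between the libraries of S + G2. *Glyur002873s00043368* was among the 13, with 245, 280.2 and 245 CPM in S + G2 against 224, 122 and 105 CPM in CK + G2 (0.84, SE 0.28, adjusted p = 0.414 by limma). *Glyur001071s00028848*, closest to the Rubisco gene, had 434, 611 and 444 CPM in S + G2 against 503, 244 and 219 CPM in CK + G2 (0.71, SE 0.33, adjusted p = 0.514 by limma).

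**Figure D5:**
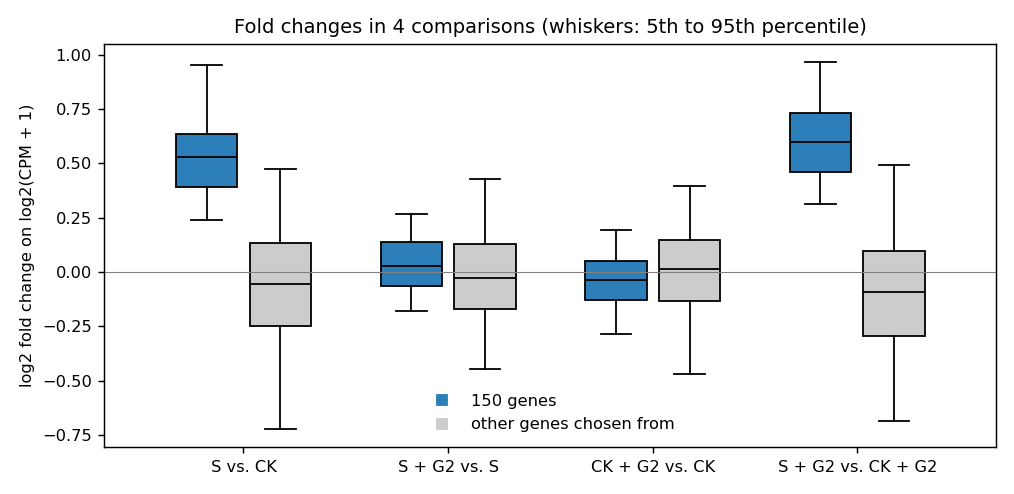
Difference in mean log2(CPM + 1) (vertical axis, left group minus right group) in 4 comparisons, for the 150 genes (blue) and the other genes chosen from (grey); boxes show quartiles and whiskers the 5th to 95th percentile. The 150 genes lie above 0 in both comparisons of salt with no salt (medians 0.53 and 0.60) and around 0 in both comparisons of G2 with no G2 (medians 0.03 and -0.03).

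The difference between the G2 effects with and without salt was fitted over all 12 libraries. It had a median of 0.07 in the 150 genes beside -0.03 over all genes tested. None of the 150 was called by limma, edgeR or DESeq2 (0.0044% of all genes tested were called by limma) and none had an unadjusted p under 0.05 (6.72% of all genes tested did). The genes were chosen to follow the Rubisco gene, whose levels spread widely within treatments, and the median SE of this difference was 0.41. The choice thus favours few genes at such a p, and the counts are no separate result. Without CK + G2 replicate 1 the median was 0.43 and 17 genes had an unadjusted p under 0.05, and without CK replicate 1 it was 0.25 with 3 genes. It was negative without S + G2 replicate 2 (-0.09), CK + G2 replicate 2 (-0.09), CK + G2 replicate 3 (-0.13) or CK replicate 3 (-0.11). With 3 libraries per treatment, limma recovered 25.4% of simulated 3-fold and 63.6% of simulated 4-fold changes in this fit over 22705 genes. Smaller differences between the G2 effects would mostly not be detectable at this number of libraries. The simulation used the same setting of spread between libraries for all genes. That setting was not taken from the 150 genes, so the shares recovered need not hold for them.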

How the data were processed

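Gene values of 12 libraries were deposited by the authors in CPM. Per the paper's methods, the authors removed reads under 500 bases, of low quality or of ribosomal RNA, kept and polished full-length reads, mapped them, and divided the reads of a gene by all mapped reads; the submitters' processing notes name minimap2, with no version, and a genome release is named in no source used here. Gene structures were read from the deposited annotation. Transcript values in CPM were used only for the share on annotated transcripts.

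Every CPM value above 0 was a whole number of reads (100%, within 0.01). Pearson's r was computed on log2(CPM + 1) with Python 3.11.15, numpy 2.4.6 and pandas 2.3.3. Comparisons were fitted on the same scale, with no added scaling, by limma-trend (limma 3.58.1, R 4.3.3). Genes entered a fit if 3 or more of its libraries reached 1 CPM, and p-values were adjusted over all of them by Benjamini-Hochberg. A fold change on this scale understates the change of low genes. edgeR 4.0.16 and DESeq2 1.42.0 served as alternatives on the recovered reads, and edgeR's TMM test called 343 and DESeq2 682 genes for S vs. CK. Other alternatives were scaling, filters, pseudocounts, a fit of all libraries, a replicate block, each library left out, and other forms of the choice. On simulated reads limma recovered 22.4% of 2-fold, 85.1% of 3-fold and 98.5% of 4-fold changes for S vs. CK over 21740 genes. These reads had the same setting of spread between libraries for all genes, which was not taken from the 150 genes. The 150 genes, the lists and the rule for genes named were chosen with earlier results of these data known. Named were the carbon fixation genes, the 6 genes with the highest r, the 4 with the highest CPM, those at the limit of the choice, the 3 with the largest and the 3 with the smallest S vs. CK difference, the called gene that rose most, and the 2 with the lowest r once treatment means were taken off; genes named beyond these were picked after their values were seen. Replicate numbers do not pair the libraries. Figures were drawn with matplotlib 3.10.9.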

Additional observations from a re-analysis of the deposited data

How the results depend on the processing

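Genes of the 150 called in S vs. CK, 2 by limma, numbered 1 by edgeR and 26 by DESeq2, and 0 with all 12 libraries in the fit and 0 with the replicate number as a block. Without single replicates the count ran from 0 to 14. In the scaling, filter and pseudocount alternatives, and with the 150 genes and both Rubisco genes left out of the CPM total (chosen after seeing the data), it was 2. In the other comparisons and the interaction it was 0 in every alternative run. Over all genes tested, the S vs. CK count of 418 was 343 by edgeR, 682 by DESeq2, 224 with all 12 libraries, 360 with the block, and 167 to 336 without single replicates. Same-numbered libraries had deviations correlated by -0.201 to 0.109, so the numbers gave no pairing.

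Of the 150 genes, 88 were also chosen by Spearman's rho and 95 without the 2 libraries farthest from the median Rubisco level (chosen after seeing the data). The other alternatives kept 104 (treatment means taken off) to 149 (pseudocount 0.1), with 122 to 141 without single libraries, 121 with the replicate block and 118 with the second Rubisco gene in place of the first. In all 24 alternatives 45 genes were kept, and 98 in each of the 12 that left out a library. Scaling by TMM kept 137, and the median r of the genes chosen from was then -0.0335 in place of -0.282, while that of the 150 genes was 0.938; the cause was not tested. The 640 alternative differences of the 20 named genes each moved by less than 1 SD, taken within the 2 treatments compared. Leaving out 1 of 3 libraries cannot move a difference by as much as this SD. For the fits without single libraries the count is therefore no sign of stability, and the medians given above did move with single libraries.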

Other observations

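Among the genes chosen from, 42 ran opposite to the Rubisco gene by at least as much as the 150 genes followed it, so that their r was negative and as far from 0 as that of the 150th gene or farther, with a lowest value of -0.987 over 12 libraries. These genes were found after the data were seen. Their mean levels ran from 10.03 to 314 CPM with a median of 51.1 CPM, lower than the median of 150.4 CPM in the 150 genes, and together they held 0.201% of the reads in the lowest library and 0.427% in the highest. In 40 of the 42 the highest 3 libraries were CK + G2 replicates 2 and 3 and CK replicate 1, the lowest 3 of the Rubisco gene. Their choice by r over the same libraries favours this too. The highest library exceeded the lowest 2.27-fold in the median gene, against 2.75-fold in the 150 genes. Because CPM of a library add up to a fixed total, the levels of the 42 genes and of the 150 are not independent of each other.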
